A study of Mus musculus with 13 samples.

Results

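The genes described here are 35 listed symbols of quiescent hepatic stellate cells and of pericytes, the mural cells that wrap small vessels. They were found by matching each symbol to the rows of one table of read counts per gene, which holds 22048 genes. A row was found for 34 of the 35, and the symbol Hgf5l, which matched no mouse gene name used here, had none. The libraries were whole-liver mRNA of 13 mouse samples in 3 groups. The 6 control livers were not depleted of hepatic stellate cells (replicates 1, 2 and 6 male, 3, 4 and 5 female). The 4 depleted livers had their hepatic stellate cells removed (replicate 3 male, 1, 2 and 4 female). The 3 hepatectomised livers were not depleted and were taken 72 h after partial hepatectomy, an operation that takes out part of the organ (replicates 1 and 2 male, 3 female). How the cells were depleted, the strain, the age, any agent given to the controls and any sham operation are not given in the sources used here. The labels do not say more of the replicates than that they are separate samples, so p-values measure the spread between these samples.

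Hepatic stellate cells lie between hepatocytes and the sinusoidal endothelium, store vitamin A when quiescent, and act as the pericytes of the sinusoid. Mural cells elsewhere in the liver, the smooth muscle of arteries and portal veins, share part of their genes: channels, contractile regulators, and receptors for vasoactive peptides, nitric oxide and platelet-derived growth factor (PDGF). Stellate cells add a set of developmental transcription factors and secreted proteins that mark them among liver mesenchymal cells.

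Library totals ran from 35360991 to 51008737 counts, so that 3 counts, the floor used here, corresponded to 0.0588 to 0.0848 CPM, counts scaled to library size. Levels below are CPM with TMM scaling between libraries, and TMM, the trimmed mean of M values, keeps a few abundant genes from setting the scale. The labelled depletion was checked on 10 stellate cell markers that are not among the 35 genes. Of these, 9 were lower in depleted livers, where 15% of all genes tested were lower. The summed level of the 10 was 177 to 489 CPM in controls and 14.5 to 88.0 CPM in depleted livers. At least 3 libraries stood apart. Depleted replicate 4 kept 88.0 CPM of those markers, against 14.5 to 29.3 CPM in the other 3 depleted livers, and had 73 counts of Y-linked genes although it is labelled female, 1.33% of the mean level of the males. Control replicate 6 had the lowest of the 6 control values for 25 of the 32 genes ranked below, with a median of 53.6% of the control mean. It also had the lowest control sums of sinusoidal endothelial markers (94.2 CPM, where the other controls had at least 313) and Kupffer cell markers (52.3 CPM, where the other controls had at least 312). Hepatectomised replicate 2 was low in the same markers, at 94.2 CPM for the endothelial sum (225 and 288 CPM in the other 2) and 58.3 CPM for the Kupffer sum (243 and 677 CPM). Without it the same 3 listed genes were called higher after hepatectomy. Counting the calls on depletion again without depleted replicate 4 and control replicate 6 gave the same 27 lower and 1 higher genes reported next.

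On depletion most of these genes fell to a small part of their control level. Of the 33 genes tested, 27 were lower in depleted than in control livers at an adjusted p under 0.05 (edgeR's quasi-likelihood test, Benjamini-Hochberg adjustment over 13831 genes), where 15% of all genes tested were lower. A single gene, Steap4, was higher, where 18.9% of all genes tested were higher. Prelp, Nt5e, Kcnj8, Ank3 and Gata6 passed the test in neither direction, and Cspg4 was not tested because it had at most 7 counts in any library. The median log2 fold change of the 33 was -3.82, against -0.03 over all genes tested. For 23 of the 34 genes every depleted liver lay below every control, which held for 11.9% of all genes tested, and for 1 gene every depleted liver lay above, which held for 16.5%. In whole liver, fewer cells of a type and less RNA per cell cannot be told apart.

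Ranked by the share of the control mean left in the depleted mean, the 32 genes with a control mean of at least 1 CPM ran from Vipr1 (0.555%) to Steap4 (316%), with a median of 8.55%. The median over all genes tested at that level was 94%. Under 5% was left of 9 genes: Vipr1, Hhip, Lhx2, Reln, Hand2, Pth1r, Tcf21, Adamtsl2 and Notch3. Between 5% and 20% was left of 12: Ednrb, Gucy1a1, Rgs5, Ednra, Ecm1, Pdgfra, Gucy1b1, Pdgfrb, Cygb, Sod3, Des and Nes. Between 20% and 50% was left of Pcdh7, Ifitm1, Mustn1, Abcc9 and Agtr1a, and between 50% and 150% of Prelp, Ank3, Nt5e, Kcnj8 and Gata6. At most 10% was left of 19 of the 32, which held for 1.22% of the 11515 tested genes at that level. The depleted livers differed among themselves: the median share left was 2.98%, 2.58% and 1.59% in replicates 1 to 3 and 28.0% in replicate 4, which was the highest of the 4 depleted livers for 24 of the 32 genes. The order of the genes changed without replicate 4. Over replicates 1 to 3 alone Hhip, Hand2, Tcf21 and Des had 0 counts, followed by Ednra (0.131%), Pth1r (0.166%) and Vipr1 (0.277%), and Des went from the 20th place to a shared first.

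**Figure D1:**
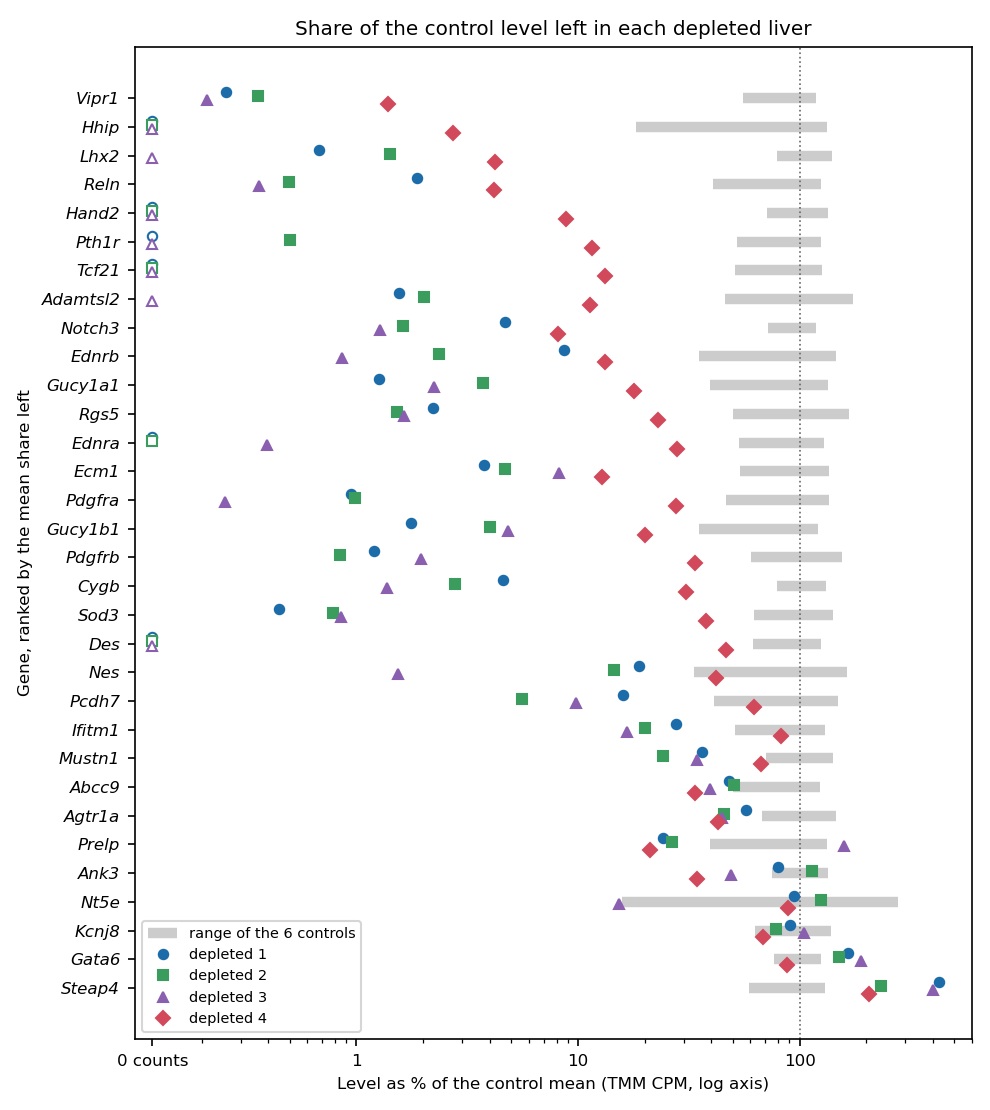
Level of each of the 32 ranked genes in the 4 depleted livers as a percentage of the control mean (horizontal log axis; open symbols at the left edge are 0 counts), with the range of the 6 controls as grey bars. The shares left run from 0.555% for Vipr1 to 316% for Steap4, and depleted replicate 4 lies to the right of the other depleted livers for most genes.

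The 2 genes with the smallest shares left in the mean of all 4 depleted livers were Vipr1, the receptor for vasoactive intestinal peptide, and Hhip, a membrane protein that binds and restrains hedgehog ligands. Vipr1 was at 27.7 to 58.9 CPM (median 53.2) in controls, at 0.129, 0.179, 0.105 and 0.691 CPM in depleted replicates 1 to 4, and at 50, 21.0 and 45.0 CPM in the hepatectomised livers. All 4 depleted livers were far below the lowest control, whereas the hepatectomised livers overlapped the controls. Its log2 fold change on depletion was -7.67 ± 0.51 (SE; adjusted p = 1.516e-06, edgeR). Hhip was at 0.300 to 2.18 CPM (median 1.85) in controls. It had 0 counts in depleted replicates 1 to 3 and 2 counts in replicate 4, against 406 summed over controls. That is a ratio of 0.661% of the control level (exact 95% interval 0.0797% to 2.40%, covering counting error only). In depleted replicate 4, which makes up much of that mean, they were at 1.39% and 2.72%.

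Their promoters are shown because these genes are at the low end of the ranking over all 4 depleted livers, and those of Gucy1b1, Gucy1a1, Kcnj8 and Abcc9 because they are the pairs of listed genes that lie side by side in the genome. Each sequence is the 250 bases before a RefSeq transcript start (GRCm38.p6), 5′ to 3′ on the gene's strand. Vipr1 is at chr9:121642466-121642715 on the plus strand. The others are on the minus strand: Hhip at chr8:80058009-80058258, Gucy1b1 at chr3:82074712-82074961, Gucy1a1 at chr3:82145651-82145900, Kcnj8 at chr6:142571615-142571864 and Abcc9 at chr6:142702275-142702524. Capitals mark matches, on either strand, to CANNTG (the E-box of basic helix-loop-helix factors) or TGGGAA (the core read by RBPJ, the DNA-binding factor of Notch signalling).
Vipr1: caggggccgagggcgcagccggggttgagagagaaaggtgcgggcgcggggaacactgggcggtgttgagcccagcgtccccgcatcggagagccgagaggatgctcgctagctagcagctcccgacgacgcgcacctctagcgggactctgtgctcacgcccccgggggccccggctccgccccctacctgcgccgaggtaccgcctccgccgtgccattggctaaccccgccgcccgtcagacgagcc
Hhip: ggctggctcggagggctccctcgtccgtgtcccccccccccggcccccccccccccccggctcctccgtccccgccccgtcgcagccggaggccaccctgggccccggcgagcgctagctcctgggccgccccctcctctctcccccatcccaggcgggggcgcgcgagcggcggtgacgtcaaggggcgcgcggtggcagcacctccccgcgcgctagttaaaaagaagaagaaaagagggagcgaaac
Gucy1b1: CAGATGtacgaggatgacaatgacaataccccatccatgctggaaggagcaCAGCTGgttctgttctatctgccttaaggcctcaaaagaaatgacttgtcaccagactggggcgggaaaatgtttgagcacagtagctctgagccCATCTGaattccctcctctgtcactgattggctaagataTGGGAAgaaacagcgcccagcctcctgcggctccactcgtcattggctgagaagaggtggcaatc
Gucy1a1: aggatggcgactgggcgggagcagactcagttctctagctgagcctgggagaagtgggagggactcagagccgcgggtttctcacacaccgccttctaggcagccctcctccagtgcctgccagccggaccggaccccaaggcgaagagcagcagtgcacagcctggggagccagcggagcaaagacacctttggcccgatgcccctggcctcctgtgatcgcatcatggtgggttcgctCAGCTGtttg
Kcnj8: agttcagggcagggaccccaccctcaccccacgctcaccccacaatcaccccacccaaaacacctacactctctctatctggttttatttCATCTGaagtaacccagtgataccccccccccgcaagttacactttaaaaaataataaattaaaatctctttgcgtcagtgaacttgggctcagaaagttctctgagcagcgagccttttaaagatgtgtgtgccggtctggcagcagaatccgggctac
Abcc9: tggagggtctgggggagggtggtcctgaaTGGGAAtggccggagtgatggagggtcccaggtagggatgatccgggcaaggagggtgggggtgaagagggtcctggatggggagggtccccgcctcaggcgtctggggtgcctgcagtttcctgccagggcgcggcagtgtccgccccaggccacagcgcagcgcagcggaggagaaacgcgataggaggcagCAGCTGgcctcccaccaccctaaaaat

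The windows of Vipr1 and Hhip were rich in G and C (72.8% and 76.0%, where the median of all 32851 windows of this length was 52.4%) and held none of the 5 motifs searched. Gucy1b1 had 3 matches to CANNTG and 1 to TGGGAA, Gucy1a1 had 1 to CANNTG, Kcnj8 had 1 to CANNTG, and Abcc9 had 1 to each. A window was found for 27 of the 35 genes. CANNTG was in 51.9% of these and in 66.2% of all windows, TGGGAA in 33.3% and 21.6%, the GATA factor motif AGATAA in 11.1% and 10%, the LIM homeodomain motif TAATTA in 3.7% and 4.8%, and the TATA box TATAAA in 11.1% and 12.4%. The marked matches do not overlap one another. A match is a description of letters and not a bound site.

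Transcription factors that mark stellate cells were at or near 0 in 3 of the 4 depleted livers. Hand2 and Tcf21 are basic helix-loop-helix factors of mesenchymal development, and Lhx2 is a LIM homeodomain factor known for holding stellate cells quiescent. Hand2 was at 3.78 to 7.11 CPM (median 5.33) in controls, had 0 counts in depleted replicates 1 to 3, was at 0.468 CPM in replicate 4, and was at 4.20, 3.45 and 8.03 CPM after hepatectomy. Depleted livers were all below the controls, and the hepatectomised livers overlapped them (log2 fold change on depletion -5.78 ± 0.95, adjusted p = 0.00063 by edgeR). Tcf21 also had 0 counts in depleted replicates 1 to 3 and was at 0.646 CPM in replicate 4, against 2.49 to 6.16 CPM in controls (-5.25 ± 1.00, adjusted p = 0.00166). Lhx2 was at 2.49 to 4.44 CPM (median 3.04) in controls and at 0.0214, 0.0448, 0 and 0.134 CPM in depleted livers, with no overlap (-6.13 ± 0.56, adjusted p = 1.022e-05). After hepatectomy it was at 1.56, 1.88 and 2.30 CPM, each below every control, with a log2 difference of -0.65 ± 0.43 that did not pass the test (adjusted p = 0.383).

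Gata6, a zinc finger factor of mesoderm and endoderm, went another way. It was at 4.18 to 6.83 CPM (median 5.54) in controls, 8.997, 8.18, 10.3 and 4.79 CPM in depleted livers, and 9.79, 25.1 and 16.1 CPM after hepatectomy. Hepatectomised livers were all above the controls (log2 fold change 1.65 ± 0.29, adjusted p = 0.00584 by edgeR), and depleted replicates 1 to 3 were too, while replicate 4 lay inside the control range. The highest of the 3 was replicate 2, the liver low in endothelial and Kupffer cell markers, and without it the rise was 1.24 and still called. In females alone, where there is 1 hepatectomised liver, it was 1.38 and was not called (adjusted p = 0.173). On depletion the log2 difference was 0.56 ± 0.27 and did not pass the test (adjusted p = 0.132). Without depleted replicate 4 it was 0.74 and passed (adjusted p = 0.0402). Markers of mesothelium, the cell layer that covers the liver, were higher after hepatectomy for 4 of 5 genes, where 6.06% of all genes tested were higher. Summed levels of the markers were 11.5, 7.38 and 40.7 CPM in hepatectomised replicates 1 to 3, 0.450 to 3.21 CPM in controls and 1.19 to 3.11 CPM in depleted livers. Their part in the Gata6 result was not tested.

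Among identity genes with secreted or surface products, 7 of 9 were lower on depletion, where 15% of all genes tested were lower. Ecm1, a secreted matrix glycoprotein, had the highest control level of the 34 genes per kilobase of gene length, at 61.7 ± 16.2 CPM per kb (SD, n = 6). In CPM it was at 83.6 to 210.0 (median 162) in controls, 5.83, 7.30, 12.8 and 20 in depleted livers, and 99.3, 59.5 and 150 after hepatectomy. Every depleted liver lay below every control (-3.82 ± 0.41 on depletion, adjusted p = 3.334e-05 by edgeR). The hepatectomised range overlapped the controls only through control replicate 6, as the other controls were at 150.7 CPM or more. Reln, the secreted glycoprotein reelin, was at 31.0 to 95.7 CPM (median 85.8) in controls and at 1.44, 0.381, 0.280 and 3.19 CPM in depleted livers (-6.19 ± 0.63, adjusted p = 2.736e-05). All 4 were below the controls, of which replicate 6 was the lowest and stood apart. After hepatectomy Reln was at 36.9, 41.8 and 68.2 CPM, above control replicate 6 and below the other controls, which were at 72.1 CPM or more.

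Pth1r, the receptor for parathyroid hormone and its related peptide, was at 7.02 to 16.9 CPM (median 13.9) in controls. Depleted replicates 1 and 3 had 0 counts, replicate 2 was at 0.0672 CPM and replicate 4 at 1.56 CPM, all below the controls (-5.42 ± 1.04, adjusted p = 0.00174). Adamtsl2, a secreted protein that binds microfibrils, was at 2.55 to 9.65 CPM in controls and 0.0857, 0.112, 0 and 0.624 CPM in depleted livers (-4.69 ± 0.85, adjusted p = 0.00118). After hepatectomy it was at 9.99, 8.14 and 13.8 CPM, which overlapped the controls, and the log2 difference of 0.96 ± 0.65 did not pass the test. Ifitm1, a membrane protein of the interferon-induced family, kept the largest share of the 7. Its control range of 2.46 to 6.25 CPM overlapped that of depleted livers (1.33, 0.963, 0.803 and 3.97 CPM) through depleted replicate 4 and control replicate 6 (-1.62 ± 0.43, adjusted p = 0.0117). It was no longer called without depleted replicate 3 (-1.31, adjusted p = 0.0696) or in females alone (-1.35, adjusted p = 0.101).

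Prelp and Nt5e were the identity genes that did not pass. Prelp, a leucine-rich proteoglycan of connective tissue, was at 20.8 to 69.8 CPM (median 56.6) in controls, and at 12.7, 13.9, 83.1 and 11.1 CPM in depleted livers. The 3 depleted females were below every control and the 1 depleted male, replicate 3, was above every control. The log2 difference over all 4 was -0.95 ± 0.54 (adjusted p = 0.198, edgeR). It was -2.22 without that male (adjusted p = 0.000635) and -2.28 in females alone (adjusted p = 0.000354). With 1 depleted male, sex and the liver itself cannot be told apart.

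Nt5e encodes CD73, the surface enzyme that makes adenosine from AMP. Its levels followed sex in all 3 groups. Control females were at 56.8 to 132 CPM and control males at 7.45 to 11.3 CPM. The depleted females were at 44.8, 59.1 and 42.2 CPM and the depleted male at 7.27 CPM. After hepatectomy the female was at 56.9 CPM and the males at 19.8 and 12.1 CPM. Every male lay below every female of any group. Over all 13 libraries the log2 difference of males from females was -2.80 ± 0.29 (adjusted p = 0.000345, edgeR), a comparison added after its values were seen. It was the only one of the 33 genes that differed by sex, where 1.03% of all genes tested did, 0.6% lower in males and 0.427% higher. With sex in the model, Nt5e did not pass on depletion (-0.61 ± 0.29, adjusted p = 0.13).

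Both filament genes were lower on depletion. Des, which encodes desmin, the muscle intermediate filament used to stain stellate cells in rodents, was at 2.64 to 5.36 CPM (median 4.54) in controls. It had 0 counts in depleted replicates 1 to 3 and 90 counts, 2.01 CPM, in replicate 4. All 4 lay below the controls, yet replicate 4 kept 46.8% of the control mean, the largest share it kept of any gene that fell to at most 10% in each of the other 3. The log2 fold change was -3.41 ± 1.19 (adjusted p = 0.0441, edgeR), and without replicate 4 the depleted livers had 0 counts against 1044 over controls, which is at least 204-fold lower (3 counts over the group as the floor; adjusted p = 2.73e-06). The call was lost in 13 of 18 alternatives. After hepatectomy Des was at 5.996, 5.95 and 6.91 CPM, each above every control, but the difference of 0.64 ± 1.02 did not pass (adjusted p = 0.754).

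Nes, which encodes the intermediate filament nestin, was at 1.14 to 5.57 CPM in controls and at 0.643, 0.493, 0.0524 and 1.43 CPM in depleted livers. Its ranges overlapped through depleted replicate 4 and control replicate 6 (-2.76 ± 0.61, adjusted p = 0.00384). Cspg4, the pericyte proteoglycan NG2, had 0 to 7 counts in controls, 0 to 3 in depleted and 0 to 3 in hepatectomised livers, 17, 4 and 4 in sum, and was not tested.

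Both PDGF receptors fell. Pdgfra was at 3.18 to 9.22 CPM (median 7.58) in controls and 0.0643, 0.0672, 0.0175 and 1.89 CPM in depleted livers (-4.15 ± 0.96, adjusted p = 0.00544). Pdgfrb was at 6.42 to 16.5 CPM (median 9.89) in controls and 0.129, 0.0896, 0.210 and 3.61 CPM in depleted livers (-3.75 ± 0.91, adjusted p = 0.00729). For both receptors the 3 low livers were under 2% of the control mean, replicate 4 was at 27.8% and 33.8%, and no depleted liver reached the controls. Neither call held in females alone (adjusted p = 0.0638 and 0.104). Of the 4 PDGF ligands, Pdgfb and Pdgfc were higher on depletion. Pdgfb was at 0.570 to 1.85 CPM in controls and 10, 10.6, 8.05 and 9.40 CPM in depleted livers, with no overlap and with replicate 4 inside the range of the other 3 (2.84 ± 0.29, adjusted p = 1.995e-05). Pdgfc was at 1.88 to 5.03 CPM in controls and 5.69 to 9.99 CPM in depleted livers (1.17 ± 0.28, adjusted p = 0.00624). This call was lost without depleted replicate 3 (adjusted p = 0.0643) and in females alone (adjusted p = 0.0759). Pdgfa and Pdgfd did not pass.

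The oxygen and redox genes split. Sod3, the extracellular superoxide dismutase, was at 17.9 to 40.3 CPM (median 28.6) in controls and 0.129, 0.224, 0.245 and 10.9 CPM in depleted livers. All were below the controls, replicate 4 by far the least (-3.77 ± 1.07, adjusted p = 0.017). The call was lost in females alone (adjusted p = 0.177) and without depleted replicate 3 (adjusted p = 0.0637). Cygb, the stellate cell globin cytoglobin, was at 6.99 to 11.7 CPM in controls and 0.407, 0.246, 0.122 and 2.72 CPM in depleted livers (-3.58 ± 0.73, adjusted p = 0.00243). Its exons overlap those of Prcd on the other strand, and whether the counting used strand is not given in the sources used here. The same holds for Pth1r and Myl3.

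Steap4, a metalloreductase that reduces iron and copper, was the one listed gene that rose on depletion. It was at 64.1 to 141 CPM (median 110) in controls, 462, 251, 432 and 221 CPM in depleted livers, and 371, 2794 and 784 CPM after hepatectomy. Every depleted and every hepatectomised liver lay above every control. The log2 fold change was 1.70 ± 0.45 on depletion (adjusted p = 0.0119) and 3.52 ± 0.51 after hepatectomy (adjusted p = 0.00261), and the direct test of depleted against hepatectomised livers gave -1.83 ± 0.57 (adjusted p = 0.0374) with overlapping ranges, a call lost in 10 of 16 alternatives. Hepatectomised replicate 2, the liver low in endothelial and Kupffer cell markers, was far above the other 2, and without it the rise after hepatectomy was 2.40 and still called. Without depleted replicate 3 the rise on depletion was 1.598 and was not called (adjusted p = 0.0673). All 6 neutrophil and monocyte markers were higher on depletion, where 18.9% of all genes tested were higher. Summed levels of the markers were 180 to 303 CPM on depletion, 2.73 to 10.3 CPM in controls and 18.4 to 34.7 CPM after hepatectomy. Their part in the Steap4 result was not tested.

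**Figure D2:**
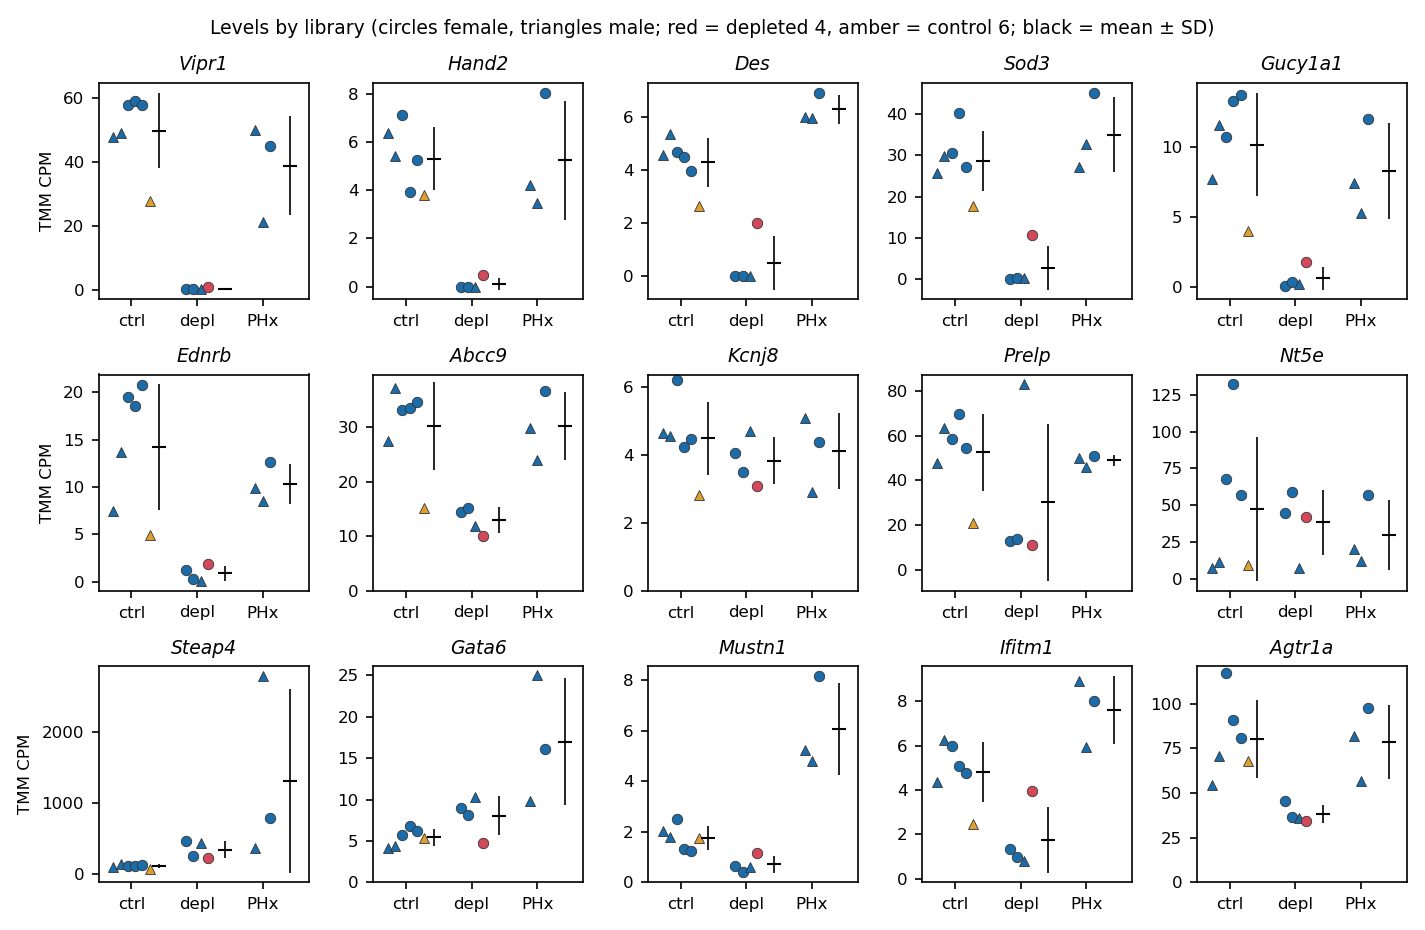
CPM in each library for 15 genes in control (ctrl), depleted (depl) and hepatectomised (PHx) livers, with circles for females, triangles for males, depleted replicate 4 in red, control replicate 6 in amber and the mean ± SD in black. Vipr1 and Hand2 are near 0 in depleted livers, and Gucy1a1 is near 0 in depleted replicates 1 to 3 and at 1.83 CPM in replicate 4. Kcnj8 overlaps in all groups, Nt5e splits by sex, and Steap4 is above the controls in both other groups.

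Both listed subunits of the nitric oxide receptor were lower on depletion. Gucy1a1 and Gucy1b1 encode the subunits of soluble guanylate cyclase, the nitric oxide receptor that makes cGMP, and lie next to each other on chromosome 3, 17738 bases apart and with no other gene of the table between. Gucy1a1 was at 4.02 to 13.7 CPM (median 11.2) in controls, 0.129, 0.381, 0.227 and 1.83 CPM in depleted livers, and 7.44, 5.33 and 12.0 CPM after hepatectomy. Gucy1b1 was at 2.55 to 8.82 CPM (median 8.34), 0.129, 0.291, 0.349 and 1.45 CPM, and 6.202, 4.04 and 6.83 CPM in the same order. For both subunits the depleted livers did not overlap the controls and the hepatectomised livers did. On depletion the log2 fold changes were -4.29 ± 0.63 (adjusted p = 0.000289) and -3.86 ± 0.59 (adjusted p = 0.000349), and 6.30% and 7.64% of the control mean was left.

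Of 12 further genes of nitric oxide and cGMP signalling, 10 were tested, and 4 were lower and 1 higher on depletion, where 15% of all genes tested were lower and 18.9% higher. Gucy1a2, the alternative alpha subunit, had 2 counts in the depleted livers against 241 in controls, a ratio of 1.11% (exact 95% interval 0.134% to 4.06%; adjusted p = 0.000211, edgeR). Both counts were in depleted replicate 3, and without it the level was at least 42.7-fold lower than in controls (same floor). Npr3, the natriuretic peptide clearance receptor, was at 1.26 to 7.46 CPM in controls and 0.0175 to 0.312 CPM in depleted livers (-5.65 ± 0.59, adjusted p = 2.41e-05), and the difference was -6.65 without depleted replicate 4. Nos2, the inducible nitric oxide synthase, had 3 counts in the 6 controls and 682 in the 4 depleted livers, a ratio of 305 (exact 95% interval 104 to 1482; adjusted p = 0.000211). The depleted livers were at 0.793, 0.515, 4.70 and 7.86 CPM. The log2 fold change of Nos2 was 8.04 ± 1.14. It was 9.28 without control replicate 3 and 6.97 without depleted replicate 4, and still called in both. All 4 T cell markers (summed 22.6 to 51.4 CPM on depletion, 1.64 to 2.72 CPM in controls) and 3 of 6 Kupffer cell markers (570 to 1288 CPM, 52.3 to 465 CPM) were also higher in the depleted livers, beside the neutrophil and monocyte markers above. Most of the Kupffer sum on depletion was Marco and Cd5l, of which Cd5l was not called. Clec4f, a marker of resident Kupffer cells, was at 0.236, 2.17, 3.44 and 69.5 CPM in depleted livers and 20.4 to 165 CPM in controls (-3.00 ± 1.26, adjusted p = 0.0872), and these 3 genes were named after their values were seen. The part of these cells in the Nos2 result was not tested. Nos3, the endothelial synthase, named after its values were seen, did not pass (0.47 ± 0.19, adjusted p = 0.0789).

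Abcc9 and Kcnj8 are also neighbours, 16506 bases apart on chromosome 6 with no other gene of the table between, and encode the sulfonylurea receptor and the pore of the same mural potassium channel. They did not move alike. Abcc9 was at 15.1 to 37.2 CPM (median 33.3) in controls, 14.4, 15.2, 11.9 and 10.1 CPM in depleted livers, and 29.8, 24.0 and 36.5 CPM after hepatectomy. Only control replicate 6 reached down to the depleted range (-1.29 ± 0.22, adjusted p = 0.00066). Kcnj8 was at 2.82 to 6.19 CPM (median 4.51) in controls, 4.05, 3.49, 4.68 and 3.07 CPM in depleted livers, and 5.09, 2.89 and 4.37 CPM after hepatectomy, and the 3 ranges overlapped (-0.24 ± 0.24 on depletion, adjusted p = 0.486). The difference between the genes was not itself tested. In neither gene was depleted replicate 4 the highest depleted liver, in contrast to Gucy1a1 and Gucy1b1.

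Rgs5, a regulator of G protein signalling used as a pericyte marker, was at 25.6 to 86.1 CPM (median 49.0) in controls and 1.14, 0.784, 0.838 and 11.8 CPM in depleted livers (-4.14 ± 0.80, adjusted p = 0.00175). No depleted liver reached the controls, and the hepatectomised livers, at 68.3, 33.1 and 49.1 CPM, spread over the control range. Notch3, the Notch receptor of mural cells, was at 0.991 to 1.63 CPM in controls and 0.0643, 0.0224, 0.0175 and 0.111 CPM in depleted livers (-4.81 ± 0.45, adjusted p = 1.184e-05). Of 10 tested partners in Notch signalling 3 were lower on depletion, where 15% of all genes tested were. The largest fall was that of Heyl, a Notch target factor, from 1.61 to 3.78 CPM in controls to at most 0.178 CPM (-5.62 ± 0.74, adjusted p = 0.000112). Without depleted replicate 4, 2 counts were left, a ratio of 0.556% of the control level (exact 95% interval 0.0672% to 2.02%).

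Mustn1, a small nuclear protein of muscle and skeleton, differed from control in both groups and in opposite directions. It was at 1.24 to 2.50 CPM (median 1.76) in controls, 0.643, 0.426, 0.611 and 1.18 CPM in depleted livers, and 5.26, 4.80 and 8.18 CPM after hepatectomy. The 3 groups did not overlap. Its log2 fold change was -1.36 ± 0.34 on depletion (adjusted p = 0.00825) and 1.79 ± 0.33 after hepatectomy (adjusted p = 0.00663), and depleted against hepatectomised livers gave -3.14 ± 0.39 (adjusted p = 0.000219). In females alone the differences from control were -1.17 (adjusted p = 0.126) and, with 1 hepatectomised liver, 2.295 (adjusted p = 0.174), and neither was called.

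Ednra, Ednrb and Agtr1a, receptors of vasoactive peptides, were lower on depletion, and differences between their falls were not tested. Ednra and Ednrb are the receptors of endothelin, the peptide that contracts stellate cells. Ednrb was at 4.98 to 20.8 CPM (median 16.2) in controls and 1.22, 0.336, 0.122 and 1.87 CPM in depleted livers (-4.42 ± 0.55, adjusted p = 9.198e-05). Ednra was at 2.37 to 5.71 CPM (median 4.64) in controls. It had 0 counts in depleted replicates 1 and 2 and 1 count in replicate 3, and was at 1.25 CPM in replicate 4 (-4.11 ± 1.08, adjusted p = 0.0111). Both receptors were below the controls in all 4 depleted livers, with 28.1% of the control Ednra and 13.2% of the control Ednrb kept in replicate 4. In females alone Ednra did not pass (adjusted p = 0.122). The ligand Edn1 was at 0.180 to 0.809 CPM in controls and 0.814 to 1.97 CPM in depleted livers, with a log2 difference of 1.31 ± 0.49 that did not pass (adjusted p = 0.0571).

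Agtr1a, the angiotensin II receptor, kept the largest share of the 27 genes that fell, 47.6%. It was at 54.4 to 117 CPM (median 75.7) in controls, 45.8, 36.8, 35.7 and 34.5 CPM in depleted livers, and 81.8, 56.6 and 97.6 CPM after hepatectomy. All 4 depleted livers lay below every control, within a narrow range and with replicate 4 the lowest (-1.15 ± 0.16, adjusted p = 0.000201). Hepatectomised livers overlapped the controls. Agt, the gene of the precursor angiotensinogen, was at 466 to 920 CPM in controls and 710 to 1765 CPM in depleted livers (0.97 ± 0.24, adjusted p = 0.00672), a call that did not hold in females alone (adjusted p = 0.13).

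Of the adhesion and scaffold genes, Pcdh7, a protocadherin, and Sntg1, a syntrophin scaffold, were lower on depletion. Pcdh7 was at 0.660 to 2.40 CPM in controls and 0.257, 0.0896, 0.157 and 1.00 CPM in depleted livers. The ranges overlapped through depleted replicate 4 and control replicate 6 (-2.35 ± 0.61, adjusted p = 0.00955). The call was lost without depleted replicate 3 (adjusted p = 0.0511) and in females alone (adjusted p = 0.092). Sntg1 had 87 counts over the controls and 1 over the depleted livers, a ratio of 1.54% of the control level (exact 95% interval 0.0386% to 8.82%; adjusted p = 0.000691). Ank3, which encodes the membrane scaffold ankyrin-G, was at 22.5 to 40.1 CPM (median 28.1) in controls and 23.9, 33.9, 14.6 and 10.3 CPM in depleted livers. Depleted replicates 1 and 2 lay inside the control range and 3 and 4 below it (-0.54 ± 0.32, adjusted p = 0.211). Without replicate 2 the difference was -0.86 and passed (adjusted p = 0.0366).

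The other 3 pathways with listed members were followed through partner genes. Of 71 partner genes in all, 54 were tested, and 9 were higher and 16 lower on depletion, where 18.9% of all genes tested were higher and 15% lower. In hedgehog signalling, beside Hhip, 3 of 10 tested partners were lower, against the same 15%. Gli3, a hedgehog transcription factor, was at 0.210 to 0.989 CPM in controls and at most 0.0891 CPM in depleted livers (-4.32 ± 0.85, adjusted p = 0.00172). Without depleted replicate 4, 1 count was left, a ratio of 1.33% of the control level (exact 95% interval 0.0335% to 7.56%). Of the receptors of reelin, Lrp8 was at 0 to 0.112 CPM in controls and 0.314 to 0.699 CPM in depleted livers (3.21 ± 0.65, adjusted p = 0.00222), and the difference was 2.17 without depleted replicate 3 (adjusted p = 0.0282). Vldlr was at 0.540 to 26.4 CPM in controls, where females were at 15.5 CPM or more and males at 2.05 CPM or less, and it was lower on depletion (-2.11 ± 0.53, adjusted p = 0.00808), a call lost without sex in the model (adjusted p = 0.448). Vip, the ligand of Vipr1, and Pth, a ligand of Pth1r, had 0 counts in all 13 libraries, controls included.

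After hepatectomy 0 of the 33 tested genes were lower than in control livers by edgeR, where 2.36% of all genes tested were lower. At an unadjusted p under 0.05 the count was also 0, and DESeq2 called 0. Steap4, Gata6 and Mustn1 were higher, where 6.06% of all genes tested were higher and 8.42% differed in either direction. The median log2 fold change of the 33 was -0.02, as was that of all 13831 genes, and the median share of the control mean was 95.6% over the 32 ranked genes. Lhx2 was the 1 gene with every hepatectomised liver below every control (6.25% of all genes tested), and Des, Steap4, Gata6 and Mustn1 were the 4 with every one above (7.41%). Reln, Ecm1, Hhip and Pth1r overlapped the controls only through control replicate 6. In that order the highest hepatectomised livers were at 68.2, 149.5, 1.12 and 10.15 CPM. The lowest of the other controls were at 72.1, 150.7, 1.53 and 13.45 CPM. None of these genes passed the test after hepatectomy, and the share of all genes that overlapped in this way is not given here. Among the 71 partner genes, Nos2 was higher (adjusted p = 0.0489). Nr2f2, a nuclear receptor of mesenchyme and veins (-1.31 ± 0.20, adjusted p = 0.00342), and Gas1, a hedgehog co-receptor (-1.68 ± 0.44, adjusted p = 0.0363), were lower. The calls of Nos2 and Gas1 were each lost when single libraries were left out, Nos2 without hepatectomised replicate 2 for example (adjusted p = 0.281) and Gas1 likewise (adjusted p = 0.154). In females alone, with 1 hepatectomised liver, Nr2f2 was at -1.08 and was not called (adjusted p = 0.161).

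**Figure D3:**
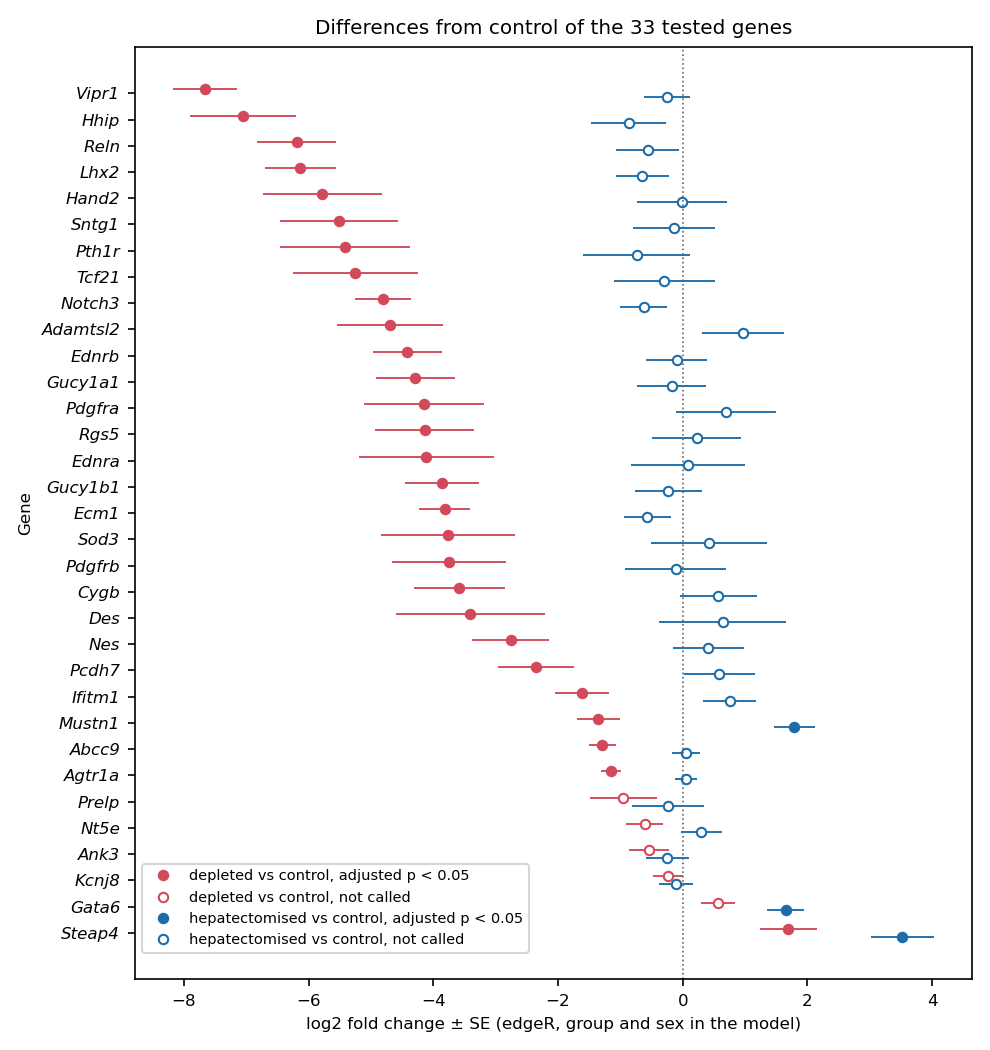
Log2 fold change ± SE of the 33 tested genes against control, for depleted livers (red) and hepatectomised livers (blue), with filled points for an adjusted p under 0.05. The red points spread from -7.67 (Vipr1) to 1.70 (Steap4), with 27 called below 0, and of the blue points 3 are called, all above 0.

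Depleted livers were then tested directly against hepatectomised livers. Of the 33 genes, 29 were lower in depleted livers, where 10.1% of all genes tested were lower, and 0 were higher by edgeR, by DESeq2 or at an unadjusted p under 0.05, where 13.3% of all genes tested were higher by edgeR. The 29 were the 27 genes that fell on depletion with Steap4 and Gata6, whose calls were lost in 10 and 8 of 16 alternatives. For 27 of the 34 genes every depleted liver lay below every hepatectomised liver, which held for 15.9% of all genes tested. With only these 2 groups in the fit 20 were lower, and in females alone, where there is 1 hepatectomised liver, 15 were.

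The genes differed in how much depleted replicate 4 kept. Of the 32 ranked genes, 20 were at or under 10% of the control mean in each of depleted replicates 1 to 3. In replicate 4 these ran from 1.39% to 46.8% (median 13.2%). At the low end were Vipr1, Hhip, Reln (4.16%) and Lhx2 (4.22%), and at the high end Des, Sod3 (37.9%), Pdgfrb (33.8%), Cygb (30.7%), Ednra (28.1%) and Pdgfra (27.8%). All 8 markers of activated stellate cells or myofibroblasts were highest in replicate 4 among the depleted livers, and their sum was 189 CPM, against 44.4 to 48.3 CPM in the others and 116 to 310 CPM in controls. Most of the sum in the other 3 was Spp1, a gene that bile duct cells also express (43.3 to 47.4 CPM). In that list, by a choice made after the values were seen, Col1a1 (type I collagen) was at 24.3 CPM in replicate 4, at most 0.112 CPM in the other 3 and 4.98 to 32.4 CPM in controls.

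Of the 8 vascular smooth muscle markers, 6 were highest in replicate 4 among the depleted livers. Over all 4 livers 4 of the 6 tested were lower on depletion, where 15% of all genes tested were lower. Acta2 (smooth muscle actin) was at 5.68 CPM in replicate 4, at most 0.384 CPM in the other 3 and 0.990 to 5.17 CPM in controls. Tagln (transgelin) was at 5.44 CPM, against at most 0.650 CPM and 3.91 to 10.4 CPM in the same order. Mylk (myosin light chain kinase) went the other way, at 41.9 CPM in replicate 4, 56.8 to 62.9 CPM in the other 3 and 66.0 to 93.3 CPM in controls, and it made up most of the list's sum (58.5 CPM in replicate 4, 60.7 to 68.0 CPM in the others and 83.8 to 111 CPM in controls). These 3 genes were named after their values were seen. Of 9 portal fibroblast markers, 5 were highest in replicate 4, with sums of 30.5 CPM, 17.1 to 27.4 CPM and 9.78 to 21.7 CPM in the same order. Of the 8 tested, 2 were higher and 3 lower on depletion, where 18.9% of all genes tested were higher and 15% lower. The largest contributor in every depleted liver was Thy1, which T cells also express, at 8.06, 7.33, 19.2 and 16.9 CPM in depleted livers and 0.570 to 1.10 CPM in controls. Mfap4, Dpt and Fbln2 were the 3 called lower, and these genes too were named after their values were seen.

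Markers of other cell types also differed in replicate 4. Of 6 Kupffer cell markers 5 were highest in it (sum 1288 CPM, 570 to 890 CPM in the other 3), Clec4f among them. Of 4 T cell markers 3 were (51.4 CPM, 22.6 to 45.8 CPM), and of 8 sinusoidal endothelial markers 0 were (260 CPM, 436 to 486 CPM). The part of these cells, and of the mesenchymal cells above, in the levels of replicate 4 was not tested.

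Leaving out depleted replicate 4 kept all 27 calls and put 20 of the 27 genes lower by over a further 1.5 times in the fit, or 19 with the 4 genes left at 0 counts set at the bound that 3 counts over the group give. The median log2 fold change of the 27 went from -4.14 to -5.83, with those 4 as fitted or at their bound. Without depleted replicate 3, by contrast, 6 listed genes were less low by over 1.5 times. Of these Adamtsl2 (-3.96), Pth1r (-4.83), Cygb (-2.99) and Pdgfra (-3.57) were still called, and Des (-2.73, adjusted p = 0.12) and Sod3 (-3.16, adjusted p = 0.0637) were not.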

How the data were processed

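Whole-liver mRNA of 13 mouse samples was read as one table of raw counts per gene, deposited by the authors. Per the labels' protocols, stranded libraries were made from 500 ng of TRIzol-extracted RNA and run over 2 lanes. The submitters' processing notes name STAR 2.7.1a, SAMtools 1.15.1, featureCounts 1.6.4 and mm10; settings for strand and multi-mapped reads are not given in the sources used here. Of 22048 gene IDs, 21741 were matched to symbols through GENCODE M21.

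The counts were tested with edgeR 4.0.16 in R 4.3.3 (filterByExpr, which kept 13831 genes, TMM scaling, glmQLFit with robust estimation, glmQLFTest) with group and sex over all 13 libraries, two-sided, Benjamini-Hochberg adjustment over all genes and a threshold of 0.05. Levels are TMM-scaled CPM, and SE is the log2 fold change divided by the square root of F. Since no molecular identifiers are mentioned, count intervals and the floor describe sampling of reads and nothing else. Alternatives, among them DESeq2 1.42.0, are given in the closing section. The test was tried on simulated data first. In the labels same-numbered samples share only a number, so the model has no block on it. The genes, the partner and marker lists and the alternatives were chosen with earlier results of these data known. All listed genes are accounted for; of the partner list the text names at most the 5 largest called changes per comparison, and ligands and receptors of listed genes. Marker lists are given by counts and sums, with a few genes named after their values were seen. Partner genes' alternatives, and those without depleted replicate 4 and control replicate 6 together, were added after seeing the data.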

Additional observations from a re-analysis of the deposited data

Results flagged for a closer look

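Within the groups of 4 depleted livers and 6 controls, the gap between an extreme library and its nearest neighbour was divided by the group's whole range and set against Dixon's 95% critical value. Of 68 such groups 23 passed. Chance flags about 1 in 20 groups that are independent, which genes of the same libraries are not, and where 3 livers have 0 counts the ratio is 1.0 whatever the fourth holds. Depleted replicate 4 was the high library in 15 of them: Des, Hand2, Tcf21 and Hhip (1.0 each, since the other 3 livers had 0 counts), Sod3 (0.989), Ednra (0.986), Pdgfra (0.973), Rgs5 (0.968), Pdgfrb (0.966), Pth1r (0.957), Cygb (0.89), Vipr1 (0.873), Gucy1a1 (0.851), Ifitm1 (0.834) and Gucy1b1 (0.833). Control replicate 6 was the low library in 6: Gucy1b1 (0.666), Hhip (0.657), Ednra (0.657), Pth1r (0.652), Vipr1 (0.637) and Reln (0.635). Prelp was high in depleted replicate 3 alone (0.961), the only male of the depleted group. Sntg1 stood apart in depleted replicate 2 (1.0), where it had 1 count and the other depleted livers 0.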

How the results depend on the processing

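Listed genes called lower on depletion numbered 24 to 27 with single libraries left out and 20 to 28 under the other alternatives, against 27. Those called higher numbered 1, 0 to 2 with libraries left out (0 without depleted replicate 3, 2 without depleted replicate 4) and 0 with a replicate block. After hepatectomy 3 were called higher, but 1 with a replicate block and 1 in females alone, and 0 were called lower under any alternative. Depleted against hepatectomised livers gave 24 to 28 lower with libraries left out, 20 with only these 2 groups in the fit and 15 in females alone, against 29. Genes at or under 10% of the control level numbered 16 to 20 with depleted libraries left out and 16 with scaling by library size alone, against 19. DESeq2 gave no adjusted p for Des and Sod3.

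Over all genes, depleted against control gave 4692 calls, 2726 in females alone and 2960 (without depleted replicate 3) to 4817 with libraries left out. Hepatectomised against control gave 1164, but 2192 with library size alone, 632 with a replicate block, 90 in females alone, 1939 by DESeq2 and 483 (without hepatectomised replicate 2) to 1331 with libraries left out; without control replicates 1 and 2 in turn there were 692 and 742. Depleted against hepatectomised gave 3236, 2105 with the 2 groups alone, 1263 in females alone and 1709 (without depleted replicate 3) to 3850 with libraries left out. Library size alone moved the median of all genes from -0.03 to 0.08 on depletion, from -0.02 to -0.24 after hepatectomy, and between the last 2 groups from -0.05 to 0.27. The split of lower against higher calls moved from 2078 and 2614 to 1471 and 2884, from 326 and 838 to 1566 and 626, and from 1399 and 1837 to 610 and 3102. The cause of these changes was not tested.

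The labels do not say whether replicate numbers pair the samples. With sex removed, same-numbered libraries correlated at -0.05 to 0.46 between depleted and control livers. They correlated at -0.22 to 0.07 between hepatectomised and control livers, and at 0.03 to 0.26 between depleted and hepatectomised livers. In the same order their means were 0.15, -0.07 and 0.16, and those of other-numbered libraries -0.02, 0.01 and -0.05. With 3 or 4 pairs a comparison, these values cannot decide whether the numbers pair the samples. With the replicate block 28 listed genes were lower on depletion, Prelp among them, and Steap4 was not called (1.68, adjusted p = 0.0617, edgeR), nor were Gata6 (1.59, adjusted p = 0.0682) and Mustn1 (1.70, adjusted p = 0.0525) after hepatectomy. Over all genes the block gave 3887 calls on depletion.

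Direction reversed only for genes that were not called after hepatectomy. With library size alone the log2 differences were -0.18 for Abcc9, -0.13 for Ednra and -0.16 for Agtr1a. Without sex in the model they were -0.032 for Rgs5, -0.001 for Abcc9, -0.68 for Nt5e and -0.03 for Agtr1a. With the replicate block they were -0.17 for Abcc9, -0.04 for Agtr1a and 0.075 for Pdgfrb. With the 2 groups alone Hand2 was at 0.003. In females alone they were -0.38 for Rgs5, -0.19 for Nes, 0.58 for Hand2, -0.58 for Nt5e and 0.15 for Pdgfrb. Without depleted replicate 4 and control replicate 6, an alternative chosen after seeing the data, they were -0.062 for Rgs5, -0.09 for Abcc9 and -0.11 for Ednra. With single libraries left out they ran from -0.10 to 0.21 for Abcc9, -0.076 to 0.18 for Agtr1a, -0.44 to 0.057 for Ank3, -0.054 to 0.33 for Ednra, -0.29 to 0.26 for Ednrb, -0.32 to 0.092 for Gucy1a1, -0.24 to 0.15 for Hand2, -0.31 to 0.075 for Kcnj8, -0.041 to 0.84 for Nes, -0.084 to 0.71 for Nt5e, -0.23 to 0.14 for Pdgfrb, -0.29 to 0.62 for Rgs5 and -0.72 to 0.37 for Sntg1.

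Depth limits Hhip, Notch3, Sntg1 and Cspg4 most, with at most 93, 69, 23 and 7 counts in any library.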
